A study of Mus musculus with 9 samples.

Results

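The genes described here build and hold the neuromuscular junction, the synapse between a motor axon and a muscle fibre. The list has 10 members, Musk, Lrp4, Rapsn, Dok7, Agrn, Ache, Colq, Prkar1a, Etv5 and Nes, and each symbol matched 1 of the 55471 Ensembl genes in the deposited count table. RNA was sequenced from the gastrocnemius, a calf muscle, of mice at postnatal day 0 to 1, with 1 library per mouse. The labels give the strain background of all 9 as C57BL/6, and the methods place the knock-out in heterozygous C57BL/6JRj matings. The groups were 5 homozygous knock-out mice, Shank3Δ11(-/-), which lack exon 11 of the synaptic scaffold gene Shank3 (KO1 to KO5), and 4 wild types, Shank3(+/+) (WT1 to WT4). The labels name no treatment. KO2 and KO4 were left out of the original comparison for too few reads, which the total counts analysed here do not show, since KO4 had the highest total and KO2, at 28211941, had more than KO5. The main comparison follows that choice and sets 3 KO mice (KO1, KO3 and KO5) against the 4 WT mice, and the values with all 9 mice stand beside it. The labels give no litter, sex, batch or single day of age for any mouse.

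At this synapse the motor nerve terminal releases agrin, which binds LRP4 on the muscle surface. LRP4 then activates the receptor tyrosine kinase MuSK, which needs the inner adaptor Dok-7, and the scaffold rapsyn gathers acetylcholine receptors under the nerve. Acetylcholinesterase ends transmission and is tied into the synaptic basal lamina by the collagen tail ColQ, while nuclei below the synapse transcribe synaptic genes under Ets factors such as Etv5. At birth the receptor still carries its fetal gamma subunit, encoded by Chrng, which is later replaced by the epsilon subunit, encoded by Chrne.

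Total counts ranged from 26444372 in KO5 to 40471957 in KO4. Shank3, the targeted gene, was counted at 31.6 ± 2.57 CPM (SD, n = 3) in the main KO mice and 34.2 ± 2.90 CPM (SD, n = 4) in WT, which does not check the deletion because reads outside exon 11 count too. CPM stands for counts scaled to library size after TMM normalisation. The tissue label held: all 10 muscle fibre markers were measured, with a summed level of 62860 to 70907 CPM per mouse. Of 13 markers of neurons and motor axons, Chat and Slc18a3, which define cholinergic neurons, had no count in any mouse, and the list summed to 14.6 to 21.7 CPM. Xist ran from 619 to 925 CPM in 4 mice (WT3, WT4, KO3 and KO5) and from 0.136 to 3.23 CPM in the other 5, so both genotypes hold mice of both kinds. The Y-linked gene Ddx3y was at 0.260 CPM or less in those 4 and at 99.9 to 128 CPM in the other 5. By these genes the 4 were female and the 5 male, which no label gives. KO5 stood apart in markers of adipocytes, 1221 CPM against 230 to 461 CPM in the other mice, and of Schwann cells, 799.5 CPM against 437 to 572 CPM. KO1 stood apart in markers of erythroid cells, 5777 CPM against 1225 to 2193 CPM in the others. KO4 did so in markers of cartilage and bone, 263 CPM against 36.4 to 125 CPM, and of tendon, 647 CPM against 267 to 428 CPM.

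All 10 members were measured in every mouse and passed the filter on low counts. Divided by exon length, which is needed to set genes side by side, the level fell into a high pair and 8 genes of lower level. Prkar1a, the RIα regulatory subunit of protein kinase A, which collects at the junction, averaged 118 ± 11.8 CPM per kilobase (SD, n = 9). Nes, encoding nestin, an intermediate filament of muscle precursors that persists at the junction of mature fibres, averaged 88.3 ± 13.4 CPM per kilobase. Prkar1a lay above Nes in 9 of 9 mice, although their ranges over mice overlapped.

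Next came Rapsn at 23.5 ± 2.48 and Ache at 19.3 ± 4.31 CPM per kilobase. Agrn had 15.2 ± 2.35, Etv5 11.2 ± 2.11 and Colq 8.97 ± 2.32 CPM per kilobase. Dok7 had 7.78 ± 1.55, Lrp4 5.22 ± 0.542 and Musk, the kinase at the head of the pathway, 4.53 ± 1.24 CPM per kilobase (SD, n = 9 each). Nes and Rapsn were the only neighbours in this order whose ranges did not overlap. Lrp4 was above Musk in 6 of 9 mice, so the receptor and its kinase partner are not ordered beyond their spread.

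**Figure D1:**
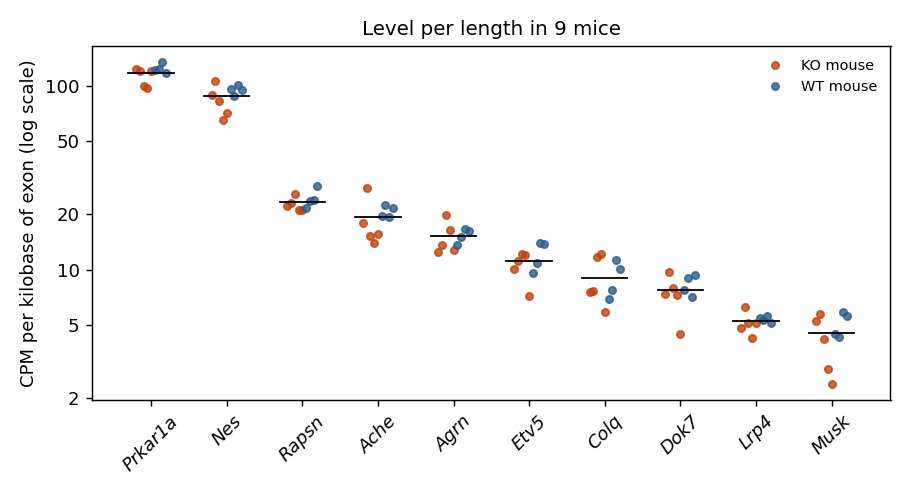
Level of the 10 genes in CPM per kilobase of exon, on a log axis, with 1 point per mouse (KO orange, WT blue) and a bar at the mean of 9 mice. Prkar1a and Nes lie above the other 8 genes, and the remaining neighbours overlap.

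Within their families 3 members took most of the signal. Prkar1a made up 76.7 to 82.7% of the 4 regulatory subunits of protein kinase A per kilobase. Etv5 made up 52.8 to 65.3% of the Etv1, Etv4 and Etv5 total, and Ache 73.6 to 85.2% of Ache plus Bche, the gene of butyrylcholinesterase. None of these shares passed an exact permutation test between KO and WT (2-sided, p = 0.2 for Prkar1a, 0.857 for Etv5 and 0.2 for Ache in 7 mice). With all 9 mice the p-values were 0.206, 0.627 and 0.349.

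Upstream sequences from RefSeq (GRCm38.p6, the build of mm10) were found for 7 of the 10 members, with none listed for Lrp4, Rapsn and Colq. They are shown for Nes and for Musk and Ache, which both moved with Nes over mice, and for Etv5, which moved with Colq. Each runs 5′ to 3′ on the gene's strand, within the 250 bases before the RefSeq start, and leaves out bases that GENCODE M21 places in an exon. Capitals mark the E-box CANNTG, the core bound by myogenic factors such as MyoD, and would mark CCGGAA, the N-box of synaptic genes, on either strand.
Musk, chr4:58285712-58285959, plus strand: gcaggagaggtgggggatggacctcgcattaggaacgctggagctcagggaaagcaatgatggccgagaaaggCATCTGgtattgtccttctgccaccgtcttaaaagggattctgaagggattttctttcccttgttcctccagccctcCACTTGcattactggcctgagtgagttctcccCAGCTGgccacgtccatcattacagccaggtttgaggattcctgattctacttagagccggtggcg
Ache, chr5:137288058-137288253, plus strand: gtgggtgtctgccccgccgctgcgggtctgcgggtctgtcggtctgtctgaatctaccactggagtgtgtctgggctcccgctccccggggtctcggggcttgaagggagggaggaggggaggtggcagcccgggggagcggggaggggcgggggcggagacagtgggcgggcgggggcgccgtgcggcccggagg
Nes, chr3:87970843-87971077, plus strand: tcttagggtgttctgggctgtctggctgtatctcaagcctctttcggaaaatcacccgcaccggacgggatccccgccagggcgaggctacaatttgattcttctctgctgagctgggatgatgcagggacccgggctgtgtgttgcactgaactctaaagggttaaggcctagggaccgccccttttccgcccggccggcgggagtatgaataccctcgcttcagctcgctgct
Etv5, chr16:22439720-22439820, minus strand: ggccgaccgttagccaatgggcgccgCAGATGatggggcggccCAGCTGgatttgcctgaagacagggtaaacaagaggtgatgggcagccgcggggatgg

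In the whole windows of 250 bases, Musk held 3 E-boxes, starting 177, 100 and 68 bases before the RefSeq start. Of 32851 such windows in the mouse table, 66.2% held at least 1 E-box and 12.2% held 3 or more. Ache held 1, CACGTG, which starts 199 bases before the RefSeq start and partly lies in an exon of another transcript, so it is not in the printed run. Etv5 held 2 in its first window, and Nes held none. CCGGAA was found in 1 of the 15 windows of these members, a Prkar1a window, against 12.0% of all windows. These matches describe letters in the windows only.

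In the comparison of KO with WT, which asks whether loss of exon 11 changes these genes in newborn muscle, Ache was the single member with p below 0.05 in 7 mice. That is 1 of 10 members, against 2.08% of all 21809 genes tested. No member passed the study's call of p below 0.05 with a false discovery rate (FDR) below 25%, in edgeR, DESeq2 or limma-voom, against 0.0% of all genes in edgeR, where 453 genes had p below 0.05, and 6 genes in DESeq2. The FDR was 99.96% for each member. With all 9 mice, 0 of 10 members had p below 0.05 in edgeR, against 2.03% of genes. All 10 fold changes lay below 0, by small amounts, with a median log2 fold change of -0.18 against -0.01 over all genes, of which 52.2% lay below 0. With all 9 mice, 10 of 10 members again lay below 0 (median -0.16, and 49.5% of all genes), but both fits share the WT mice. When the replicate number was used as a block in the 7 mice, 6 of 10 lay below 0. Of these mice only KO1 and WT1, and KO3 and WT3, share a number. That fit therefore rests on those pairs, and KO5, WT2 and WT4 do not bear on its fold changes.

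**Figure D2:**
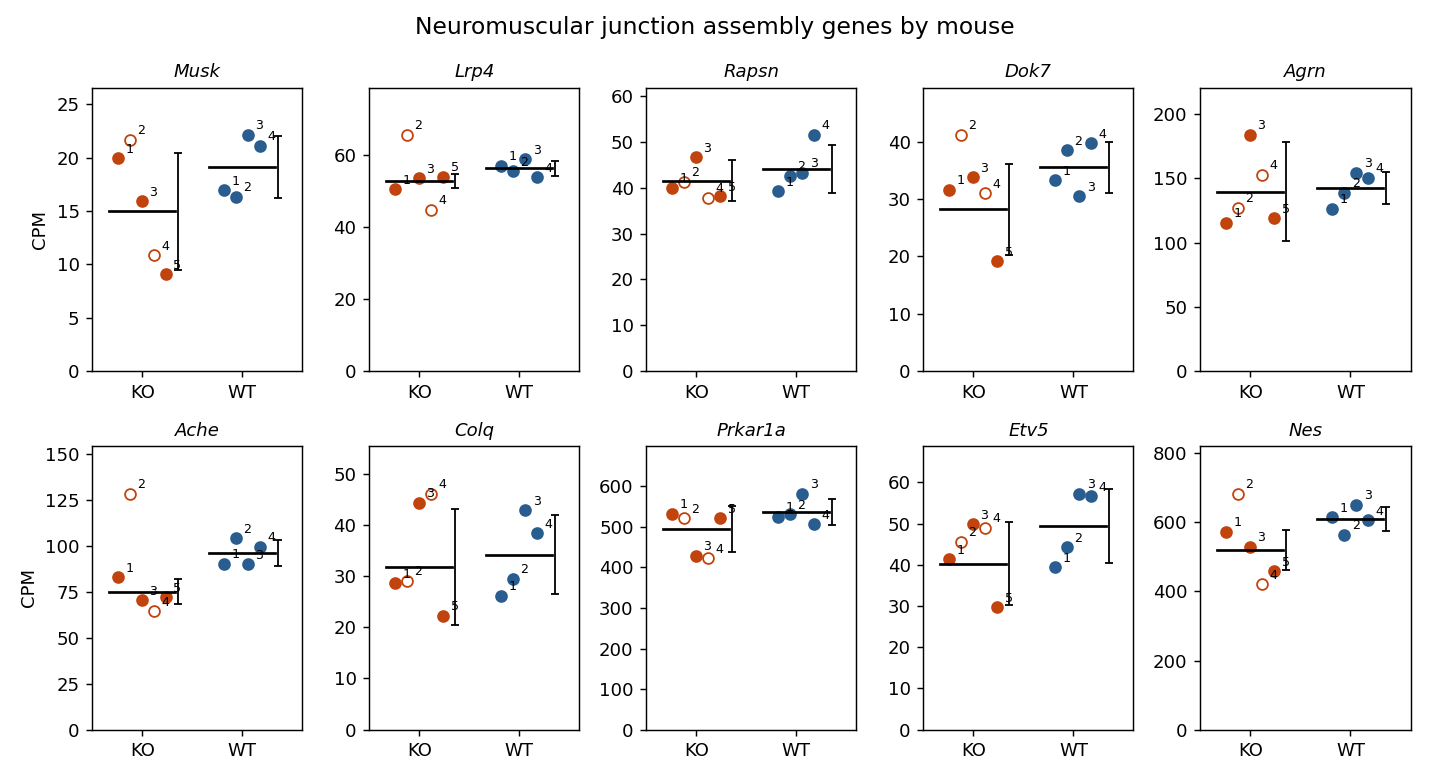
CPM of each gene by mouse, with axes from 0 and digits for the replicate number. Filled orange points are KO1, KO3 and KO5, open ones KO2 and KO4, blue points WT. Bars give the mean and SD of the 3 filled KO and the 4 WT mice. In the Ache panel the 3 filled KO points lie below all WT points, and KO2 lies above all others.

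Ache (ENSMUSG00000023328, chromosome 5 from 137287519 to 137294466 in mm10, plus strand) encodes acetylcholinesterase. Its level was 83.0 CPM in KO1, 70.4 in KO3 and 71.9 in KO5, and 90.4 in WT1, 104 in WT2, 89.8 in WT3 and 99.5 in WT4. The 3 KO mice lay below every WT mouse. KO4 was lower still at 64.4 CPM, while KO2 was the highest of the 9 mice at 128 CPM.

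The Ache means were 75.1 ± 6.90 CPM (SD, n = 3) in KO and 96.0 ± 7.05 CPM (SD, n = 4) in WT, or -0.36 as a log2 fold change with a standard error of 0.11. Its p was 0.00653 in edgeR and 0.0286 in an exact permutation test, the smallest that 3 against 4 mice allow. Among all genes tested, 2.84% had KO and WT mice that did not overlap, and Ache was the 1 such member. With all 9 mice, where 0.686% of genes did not overlap, the KO mean was 83.6 ± 25.9 CPM (SD, n = 5), the groups overlapped, and the log2 fold change was -0.20 (standard error 0.17, p = 0.276, exact p = 0.270). With the replicate block in 7 mice it was -0.24, with p = 0.0607 in edgeR, and no exact test was run for that fit. Within the mice of high Xist the difference in mean log2 CPM was -0.41 and within those of low Xist -0.14, with 2 or 3 mice a side and no test. The exons share 98 bases, 2.12% of their length, with a noncoding gene on the other strand, and whether the counting used strand is not given in the sources used here.

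Ache had r = 0.85 over 9 mice with the summed markers of satellite cells and myoblasts (exact permutation test, adjusted p = 0.112 over 120 relations; rho 0.82, adjusted p = 0.237), and 0.69 without KO2 and KO4. All 6 of these markers were measured, 5 of them with a fold change below 0, and their sum was 291 to 364 CPM in the 3 KO mice, 272 to 414 CPM in all 5 and 343 to 395 CPM in WT. With the summed markers of endothelial cells and pericytes Ache had r = -0.88 (exact permutation test, adjusted p = 0.112), and -0.67 without KO2 and KO4. The part of either set of markers in the Ache result was not tested. In a whole muscle, fewer cells of a type and less RNA per cell cannot be told apart.

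Colq (ENSMUSG00000057606, chromosome 14 from 31523082 to 31591343, minus strand) encodes the tail that anchors this enzyme. It was at 28.6, 29.1, 44.3, 46.1 and 22.3 CPM in KO1 to KO5 and at 26.2, 29.5, 42.8 and 38.3 CPM in WT1 to WT4. Both genotypes thus held mice at 38.3 CPM or more and mice at 29.5 CPM or less, and the groups overlapped. Its log2 fold change was -0.12 (standard error 0.24, p = 0.635, exact p = 0.657) in 7 mice and -0.0031 (standard error 0.22) in 9. In 7 mice, 2 standard errors on either side reach from -0.59 to 0.36. The Colq change was -0.44 without KO3 and 0.080 without KO5. The ratio of Ache to Colq per kilobase ran from 1.15 in KO4 to 3.63 in KO2 and was 2.12 ± 0.713 in the 3 KO and 2.40 ± 0.570 in the 4 WT mice (exact permutation test on log2 ratios, p = 0.571). The exons of Colq share 199 bases, 5.23% of their length, with Gm49387 on the same strand, so reads there are uncertain.

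Musk (ENSMUSG00000057280, chromosome 4 from 58285960 to 58374303, plus strand) was the member that varied most, with a coefficient of variation of 27.5% over 9 mice. Its level was 19.9, 21.7, 15.9, 10.8 and 9.07 CPM in KO1 to KO5 and 17.0, 16.3, 22.1 and 21.1 CPM in WT1 to WT4. KO4 and KO5 were the low mice, and KO1 and KO2 sat among the highest WT. The log2 fold change was -0.36 (standard error 0.23, p = 0.151, exact p = 0.171) in 7 mice and -0.30 (p = 0.213, exact p = 0.246) in 9. Without KO5 it was -0.11, and without KO1 it was -0.62 with p = 0.0245 in edgeR (exact p = 0.0667, the smallest that 2 against 4 mice allow), a setting in which 4.35% of all genes had an edgeR p below 0.05. With the replicate block in 7 mice it was -0.13. It was -0.85 within the mice of high Xist and 0.01 within those of low Xist, as differences in mean log2 CPM with no test.

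Of its partners, Lrp4 (ENSMUSG00000027253, chromosome 2 from 91457511 to 91513779) lay between 50.6 and 54.0 CPM in the 3 KO mice and between 53.8 and 58.8 CPM in WT, so the groups overlapped. The log2 fold change of Lrp4 was -0.10 (standard error 0.09, p = 0.290, exact p = 0.0857) in 7 mice and -0.068 in 9. Dok7 (ENSMUSG00000044716, chromosome 5 from 35056766 to 35087839) ranged from 19.2 CPM in KO5 to 41.3 CPM in KO2, and its log2 change was -0.34 (standard error 0.19, p = 0.0951, exact p = 0.2) in 7 mice and -0.18 in 9. The other 4 KO mice lay at 31.0 CPM or above, and WT between 30.5 and 39.8 CPM, so KO5, the mouse with the highest adipocyte markers, was alone at the low end of Dok7. Without KO5 the log2 change of Dok7 was -0.13, without KO3 it was -0.49 (p = 0.0349 in edgeR, exact p = 0.133, where 3.57% of all genes had an edgeR p below 0.05), and with the replicate block in 7 mice it was 0.033. Rapsn (ENSMUSG00000002104, chromosome 2 from 91035620 to 91045729) varied little, from 37.8 to 51.6 CPM, and its log2 change was -0.10 (standard error 0.13, p = 0.459, exact p = 0.543), which ran from -0.19 without KO3 to -0.0086 without WT4 and was -0.12 in 9 mice. Agrn (ENSMUSG00000041936, chromosome 4 from 156165290 to 156197488) was at 115, 127, 184, 153 and 119 CPM in KO1 to KO5 and at 126, 139, 154 and 150.5 CPM in WT1 to WT4. KO3 was the highest mouse and KO1 the lowest, so KO spanned the WT range on both sides. The Agrn means were 139.5 ± 38.6 CPM (SD, n = 3) in KO and 143 ± 12.7 CPM (SD, n = 4) in WT, with a fitted change of -0.04 (standard error 0.16, p = 0.811, exact p = 0.8), which was -0.29 without KO3 (edgeR p = 0.0455, exact p = 0.133). In 9 mice it was -0.029. It turned above 0 without KO1 (0.081), without KO5 (0.059), without WT3 (0.0094) and with the replicate block in 7 mice (0.058). A count per gene does not separate the agrin isoforms of nerve and muscle.

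Etv5 (ENSMUSG00000013089, chromosome 16 from 22381309 to 22439719) is the Ets factor of synaptic nuclei. It was at 41.3, 45.6, 49.9, 49.0 and 29.7 CPM in KO1 to KO5 and at 39.5, 44.3, 57.3 and 56.7 CPM in WT1 to WT4. KO5 was alone at the low end and WT3 and WT4 were at the top. Its log2 fold change was -0.30 (standard error 0.19, p = 0.136, exact p = 0.257) in 7 mice and -0.20 in 9. It was -0.13 without KO5, -0.49 without KO3 (edgeR p = 0.0323, exact p = 0.2) and -0.073 with the replicate block in 7 mice.

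Nes (ENSMUSG00000004891, chromosome 3 from 87971078 to 87980451) was at 573, 683, 530, 420.5 and 458 CPM in KO1 to KO5 and at 615, 564, 651 and 605 CPM in WT1 to WT4. KO2 was the highest of the 9 mice, and KO3, KO5 and KO4 were the lowest. The log2 fold change of Nes was -0.24 (standard error 0.11, p = 0.0636, exact p = 0.0857) in 7 mice and -0.19 (p = 0.168, exact p = 0.190) in 9. Without KO1 it was -0.31 (edgeR p = 0.0401, exact p = 0.0667), and without KO5 it was -0.16 (edgeR p = 0.225, exact p = 0.2). Prkar1a (ENSMUSG00000020612, chromosome 11 from 109649405 to 109669656) lay between 422 and 532 CPM in the 5 KO mice and between 507 and 582 CPM in WT, and its log2 change was -0.13 (standard error 0.12, p = 0.297, exact p = 0.371). With 9 mice the Prkar1a change was -0.14, without KO3 it was -0.034, and with the replicate block in 7 mice it was -0.22.

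**Figure D3:**
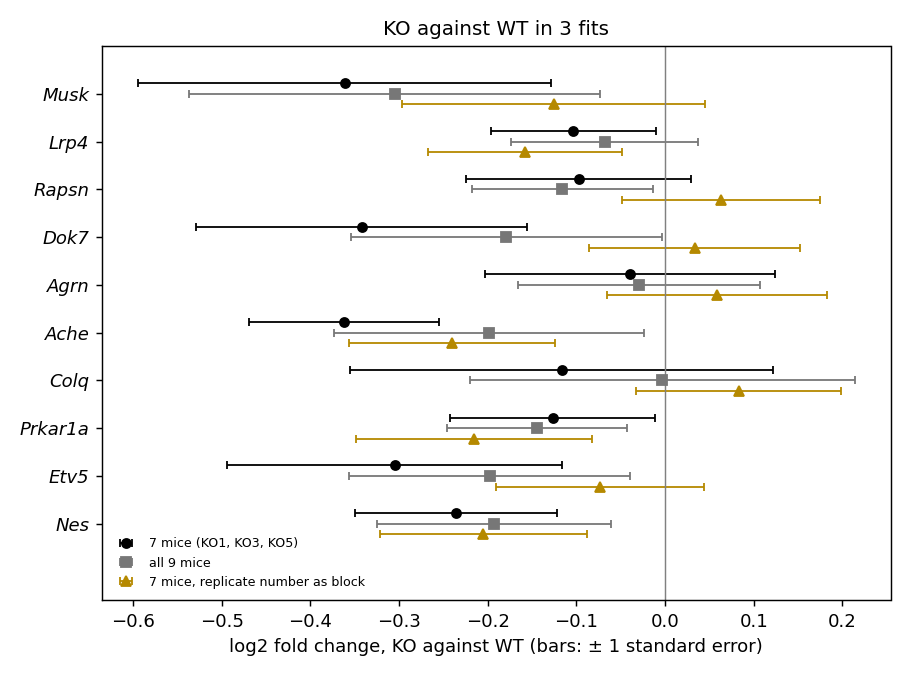
Log2 fold change of KO against WT with 1 standard error, for 7 mice (black), all 9 mice (grey) and 7 mice with the replicate block (ochre). The ochre fold changes rest on KO1, KO3, WT1 and WT3. The black and grey points lie below or at 0 for all 10 genes, and 4 ochre points, Rapsn, Dok7, Agrn and Colq, lie above 0.

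The lowest value of every member was found in a KO mouse, in KO4 for 5 members, in KO5 for 4 and in KO1 for Agrn. Over all 21735 genes tested in 9 mice the lowest value was in a KO mouse for 56.9% and in KO4 or KO5 for 27.7%. The highest value was in KO2 for 4 members, Lrp4, Dok7, Ache and Nes, against 11.2% of all genes. The coefficient of variation was larger in the 5 KO than in the 4 WT mice for 9 of 10 members, against 53.5% of all genes, with Rapsn the exception. The median coefficient of variation over 9 mice was 17.2% for the members, 16.4% for all genes tested and 11.9% for genes with a mean of 10 to 700 CPM, a range set around the levels of the members.

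Around these members, pathway lists of 136 genes were counted, of which 132 were tested. In 7 mice 49 had a fold change above 0 and 83 below, with a median of -0.03, and 2 had p below 0.05, both lower in KO. That is 1.52% of the 132, below the 2.08% of all genes. The 2 genes were Myod1 and Col13a1. Myod1, the myogenic factor that is also raised by denervation, was at 46.5 ± 7.03 CPM in the 3 KO and 61.2 ± 6.53 CPM in the 4 WT mice, or -0.41 on the log2 scale (standard error 0.13, p = 0.0109, exact p = 0.0286). With 9 mice its p was 0.265 (exact p = 0.278), KO2 having the highest value at 83.5 CPM, and it did not pass in the block fit (-0.15, p = 0.195) or without KO5 (-0.29, p = 0.0547, exact p = 0.133). Col13a1, which encodes a transmembrane collagen of the junction, was at 9.04 ± 0.826 CPM in KO and 12.2 ± 2.16 CPM in WT, or -0.44 on the log2 scale (standard error 0.17, p = 0.0239, exact p = 0.0857). Of the 17 fits run, 12 gave Col13a1 a p below 0.05, the same number as for Myod1. Col13a1 passed with 9 mice (-0.35, p = 0.0271, exact p = 0.0317) and in the block fit of 7 mice (-0.37, p = 0.0483), with an FDR of 99.96% in 7 mice and 99.99% in 9. It did not pass with the block in 9 mice (-0.28, p = 0.0577) or, in 7 mice, without KO3 (p = 0.0508), KO5 (p = 0.0828), WT3 (p = 0.0745) or WT4 (p = 0.0560), with exact p-values of 0.133 without either KO mouse and 0.1 without either WT mouse. Within the mice of low Xist, however, the Col13a1 difference was -0.03, against -0.69 within those of high Xist.

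No gene of the other lists had p below 0.05 in 7 mice. Among 16 genes of synaptic transcription and neuregulin signalling 13 lay below 0 (median -0.08), and Etv4, a close relative of Etv5, had a log2 fold change of -0.27 (p = 0.0544, exact p = 0.0857) in 7 mice and -0.093 in 9. Among the 32 genes of MuSK signalling and receptor clustering 15 lay above 0 and 17 below, with a median close to 0, and with the replicate block in 7 mice 9 lay above and 23 below (median -0.035). Of the 5 receptor subunits, Chrng had a log2 fold change of -0.34 (p = 0.147, exact p = 0.286), Chrnd -0.20 (p = 0.268, exact p = 0.371), Chrna1 and Chrnb1 -0.03 each and Chrne 0.19 (p = 0.650, exact p = 0.686). With 9 mice these were -0.30 for Chrng, -0.15 for Chrnd, -0.072 for Chrna1, -0.013 for Chrnb1 and 0.094 for Chrne. With the replicate block in 7 mice, 4 of the 5 subunits lay above 0, and 4 pathway genes had p below 0.05, Hdac9, Vamp1 and Col13a1 lower and Dpagt1 higher, named after their values were seen. In that fit 3.87% of all genes had p below 0.05.

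Over the 9 mice some members went up and down together. Of 45 pairs, 34 had a Pearson r above 0, and 5 passed an exact permutation test after Benjamini-Hochberg adjustment over the 45. Musk and Nes had r = 0.91 (adjusted p = 0.0371, Spearman's rho 0.92 with adjusted p = 0.0456). Ache and Nes had r = 0.84 (adjusted p = 0.0459, rho 0.75 with adjusted p = 0.191), and Lrp4 and Nes 0.82 (adjusted p = 0.0492, rho 0.78 with adjusted p = 0.155). Nes, the filament gene, was thus the common partner of the kinase, its coreceptor and the esterase.

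Colq was the partner in the remaining pairs that passed. Agrn and Colq had r = 0.87 (adjusted p = 0.0442, rho 0.90 with adjusted p = 0.0456) and Colq and Etv5 0.86 (adjusted p = 0.0371, rho 0.83 with adjusted p = 0.093). Other pairs of the same genes did not pass the exact permutation test. Agrn and Etv5 had r = 0.71 (adjusted p = 0.166), Musk and Ache 0.71 (adjusted p = 0.166), Lrp4 and Ache 0.80 (adjusted p = 0.0751) and Musk and Lrp4 0.56 (adjusted p = 0.281). Between Musk, Ache, Lrp4 or Nes and Agrn, Colq or Etv5, the highest r was 0.63, for Etv5 with Musk. The other pairs across ran from -0.34 (Lrp4 with Colq) to 0.37 (Etv5 with Nes). Rapsn and Dok7 were in no pair that passed, but Etv5 had r = 0.67 with Rapsn and 0.68 with Dok7, and Musk 0.74 with Dok7. No grouping of the members was tested. Ache and Colq, enzyme and tail, had r = -0.29 (adjusted p = 0.609). After subtraction of genotype means the correlations of Musk with Nes (r = 0.89), Agrn with Colq (0.88) and Colq with Etv5 (0.90) still passed, and the pairs of Ache and of Lrp4 with Nes, at 0.80 and 0.82, did not. After subtraction of the means of high and low Xist mice 7 pairs passed, including these 5.

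**Figure D4:**
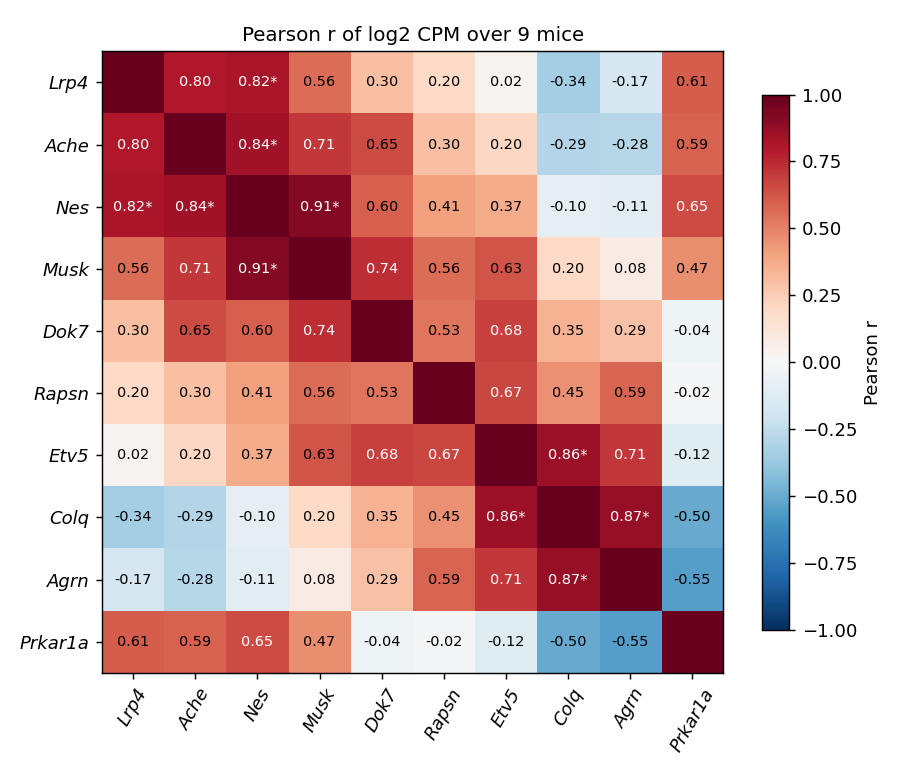
Pearson r of log2 CPM for each pair of the 10 genes over 9 mice, from -1 (blue) to 1 (red), with an asterisk at an adjusted p below 0.05. Asterisks mark Nes with Musk, Ache and Lrp4, and Colq with Agrn and Etv5, other red cells carry none, and Prkar1a has negative r with Colq and Agrn.

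Without the 2 mice farthest from the median of the first gene named, r was 0.76 for Musk and Nes and 0.67 for Ache and Nes. Extreme mice of the second gene could stay in. For Lrp4 and Nes it fell to 0.47, so that relation rests on KO2 and KO4. For Agrn and Colq, and for Colq and Etv5, it was 0.96 each. Leaving out single mice, r stayed at or above 0.90 for Musk and Nes, 0.86 for Agrn and Colq, 0.80 for Colq and Etv5, 0.77 for Ache and Nes and 0.66 for Lrp4 and Nes. The adjusted tests were less stable, and without any 1 of KO2, KO3, KO5, WT1, WT2 or WT4, 0 of the 45 pairs had an adjusted p below 0.05, while 7 to 11 had an unadjusted p below 0.05 in the exact permutation test. Colq had no mouse between 29.5 and 38.3 CPM, and with fewer than 6 mice on either side of this step no r is given within a side. The 4 mice above the step, KO3, KO4, WT3 and WT4, are those numbered 3 and 4 in both genotypes, and the permutation tests treat the 9 mice as independent although mice of 1 number were taken as pairs. Set against WT of the same number, KO differed in the same direction for Colq and Etv5 in 1 of 4 numbers, for Agrn and Colq in 3, for Musk and Nes in 3, and for Ache and Nes and for Lrp4 and Nes in 4 of 4. With 4 pairs these relations were not tested within numbers. Among the 4 mice above the step, Etv5 was higher in WT3 and WT4 and Colq in KO3 and KO4. Among the 5 below it, Colq rose in the order KO5, WT1, KO1, KO2, WT2, and Etv5 had the same order except that KO2 lay above WT2.

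KO3, KO4, WT3 and WT4 were the 4 highest mice for Agrn, for Colq and for Etv5, and the 4 lowest for Chrna1 and for Chrne, the adult receptor subunit. Over all 21735 genes tested, 5.6% had these mice above the other 5 and 5.19% below. Chrne was at 2.11, 1.92, 1.30 and 1.95 CPM in KO3, KO4, WT3 and WT4 and at 2.50 to 4.71 CPM in the rest. Within numbers, KO and WT differed in opposite directions for Colq and Chrne in 2 of 4. The ratio of fetal Chrng to adult Chrne per kilobase was lowest in KO5, at 6.32, and highest in WT3, at 43.8, and was 16.5 ± 10.2 in the 3 KO and 25.5 ± 15.8 in the 4 WT mice (exact permutation test on log2 ratios, p = 0.486).

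Each member was also set against the 5 receptor subunits, and 6 of these 50 relations had an adjusted p below 0.05 by Pearson's r. Rapsn with Chrng (r = 0.88, adjusted p = 0.0465, rho 0.95, adjusted p = 0.0176) was the only relation that also passed by Spearman's rho. Against WT of the same number, both genes differed in the same direction in KO1 and KO4. They differed in opposite directions in KO2 (Rapsn 41.3 against 42.6 CPM, Chrng 130 against 126 CPM) and KO3 (Rapsn 46.6 against 43.3 CPM, Chrng 138.7 against 139.9 CPM). Rapsyn binds the receptor directly, and gamma is its fetal subunit, but what links the RNA levels was not tested. Without KO3 and WT4 the r of Rapsn with Chrng was 0.92. With the other subunits Rapsn had r of -0.13 for Chrna1, 0.32 for Chrnb1, 0.61 for Chrnd and -0.40 for Chrne, none with an adjusted p below 0.05. Colq had r = -0.86 with Chrne (adjusted p = 0.0465, -0.90 without KO3 and KO4, rho -0.77 with adjusted p = 0.178) and -0.85 with Chrna1 (adjusted p = 0.0465, -0.75 without them, rho -0.67 with adjusted p = 0.227). Etv5 had r = -0.82 with Chrne (adjusted p = 0.0481) and 0.84 with Chrng (adjusted p = 0.0465), which were -0.64 and 0.65 without KO5 and WT3, and rho of -0.82 and 0.82 (adjusted p = 0.178 each). Musk had r = 0.87 with Chrnd (adjusted p = 0.0465, rho 0.73 with adjusted p = 0.195), but 0.32 without KO4 and KO5, so it rests on those mice.

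**Figure D5:**
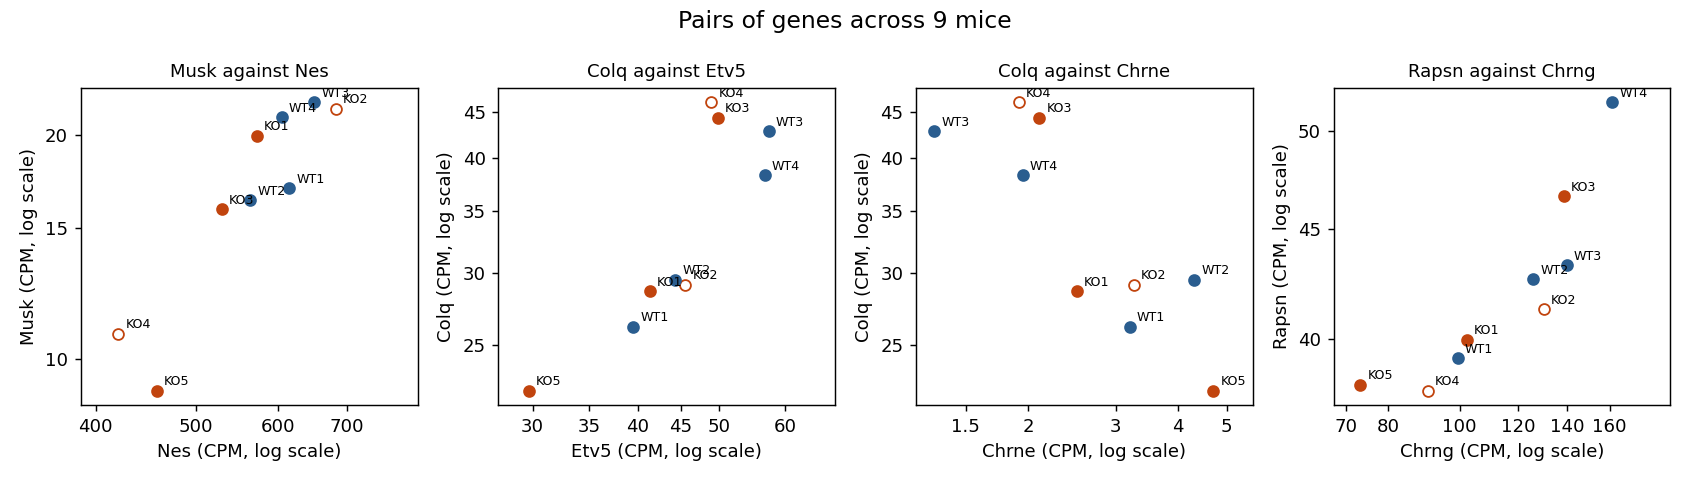
Level of Musk against Nes, Colq against Etv5, Colq against Chrne and Rapsn against Chrng, in CPM on log axes, with 1 labelled point per mouse (KO orange, open for KO2 and KO4, WT blue). Musk and Nes share their lowest mice, KO4 and KO5, Colq splits into 4 mice at 38.3 CPM or more and 5 at 29.5 CPM or less, and Rapsn orders the mice much as Chrng does.

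Markers of other cells were set against the members. Of 120 relations between the members and the summed markers of 12 cell types, 16 had an unadjusted p below 0.05 by an exact permutation test and none an adjusted p below 0.05 by r (lowest 0.112) or by rho. Nes, Ache and Musk had r of -0.90, -0.88 and -0.80 with 10 markers of endothelial cells and pericytes. Their sum was 1081 to 1189 CPM in the 3 main KO mice, 923 to 1258 CPM in the 5 KO and 972 to 1088 CPM in the 4 WT mice. Of these 10 markers, 1 had a fold change below 0 in 7 mice. Without the 2 mice farthest from the member's median, r with these markers was -0.71 for Nes, -0.67 for Ache and -0.51 for Musk. Nes and Musk had r of 0.84 and 0.80 with the satellite cell and myoblast markers, which were 0.27 and 0.16 without KO4 and KO5. Dok7 had r = -0.93 with 7 adipocyte markers, and -0.50 without KO2 and KO5. With the satellite cell and myoblast markers Dok7 had r = 0.76, and 0.72 without KO2 and KO5. Agrn had r = -0.79, and -0.63 without KO1 and KO3, with 7 leukocyte markers, whose sum was 103 to 150 CPM in KO and 105 to 143 CPM in WT. Etv5 had r = -0.74 with the same leukocyte markers, and -0.57 without KO5 and WT3. Colq had r = 0.73 with 4 tendon markers, in which KO4 stood apart, and 0.61 without KO3 and KO4. Lrp4 had r of 0.73 with the satellite cell and -0.77 with the endothelial markers, which were 0.12 and -0.13 without KO2 and KO4. The part of these cells in the correlations was not tested.

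Among 13229 genes with a mean of at least 5 CPM, those whose log2 CPM was most like each of 3 members over the 9 mice are given as a description. For Musk they were Mybpc1 (r = 0.99), a myosin binding protein of slow fibres, Ccdc8 (0.97) and Socs7 (0.97). For Ache they were Myod1 (0.96), Elmo3 (0.96) and Ddr1 (0.94). For Nes they were Soga1, Tbc1d16 and Gpr17 (0.97 each). Nes ranked 71st of these genes for Musk, so their correlation, though the highest among the members, was exceeded by many genes outside the list.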

How the data were processed

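The deposited counts, as the authors made them, are whole numbers of reads per Ensembl gene in each mouse, not normalised: reads were mapped with HISAT2 to mm10 and counted with featureCounts. The annotation release, strandedness and handling of multiply matched reads are not stated in what was read here. The table holds 55471 genes, 16836 without a count, and 55230 matched GENCODE M21 (GRCm38), which gave symbols, positions and exon lengths.

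KO1, KO3 and KO5 were compared with WT1 to WT4 over all 21809 genes that passed filterByExpr (minimum count 10, total 15) with the robust quasi-likelihood test of edgeR 4.0.16 in R 4.3.3, TMM normalisation and Benjamini-Hochberg adjustment over all genes (FDR), and again with all 9 mice (21735 genes). Fold changes are KO over WT. Exact permutation tests (2-sided) used log2 CPM with a prior count of 2, as did correlations. They cannot give a p below 0.0286 (3 against 4 mice) or 0.00794 (5 against 4). The fit and the correlations were tested on simulated data. Alternatives were no filter, DESeq2's size factors (RLE), DESeq2 1.42.0, limma-voom (limma 3.58.1), a block for the replicate number, a term for high Xist (above 100 CPM) and each mouse left out. The labels give both groups the same replicate numbers but do not say what a number marks. Deviations from group means over 17980 genes correlated at 0.474, 0.136, 0.444 and 0.140 for the same-numbered mice 1 to 4, so the numbers were taken to pair the mice, on the data alone. Differently numbered mice also correlated, above the values of numbers 2 and 4, at 0.378 for KO3 with WT4, 0.366 for KO2 with WT1 and 0.209 for KO1 with WT2. The p-values set differences against the spread between these mice and, outside the block fits, take the mice as independent. Nothing says how the animals were related, so this cannot be checked.

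Members, pathway lists and marker lists were chosen with earlier results of these data known. Named genes were all members, their receptor subunits and nearest relatives, the genes of each pathway list with the smallest p below 0.05 (up to 2 per direction) and the 3 genes most like Musk, Ache and Nes. Matplotlib 3.10.9 (Python 3.11.15) drew the figures.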

Additional observations from a re-analysis of the deposited data

How the results depend on the processing

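No member passed an FDR of 25% under any of the 17 fits run, and the replicate block changed no call other than those given here. The number of members with p below 0.05, 1 in the 7 mice, was 0 with all 9 mice, 2 in limma-voom (Ache and Nes, against 1.95% of all genes), 0 with the replicate block in 7 or in 9 mice and 0 with the Xist term in 9 mice, and 1 to 4 when a mouse was left out, with 3 without KO1 (Musk, Ache and Nes) and 4 without KO3 (Dok7, Agrn, Ache and Etv5), where 4.35% and 3.57% of all genes had p below 0.05. Ache kept an edgeR p below 0.05 in all 7 fits that left out a mouse, where its log2 fold change was -0.44 to -0.32. Its exact p there was 0.0667 without a KO mouse, the smallest those mice allow, and 0.1 without a WT mouse. Each of these fits also leaves out KO2. Members with no overlap were 0 with 9 mice and 1 to 3 with a mouse left out, against 4.99 to 12.3% of all genes. Members below 0 were 6 with the replicate block in 7 mice and 8 to 10 with a mouse left out. The log2 fold change turned above 0 with the replicate block for Agrn (0.058 in 7 mice, 0.0042 in 9), Colq (0.083 and 0.11), Dok7 (0.033 in 7 mice) and Rapsn (0.063 in 7 mice), and for Colq with the Xist term in 9 mice (0.040). With a mouse left out it ran from -0.29 to 0.081 for Agrn, above 0 without KO1, KO5 or WT3, and from -0.44 to 0.080 for Colq, above 0 without KO5 or WT3. Pathway genes with p below 0.05 were 1 with 9 mice, 4 with the replicate block in 7 mice, 0 with it in 9, and 1 to 7 with a mouse left out (7 without KO1, 6 without KO3). All genes with p below 0.05, 453 in the 7 mice, were 972 without a filter, 844 with the replicate block in 7 mice and 224 to 968 with a mouse left out (224 without KO5, 968 without KO1). Pairs of members with an adjusted p below 0.05 were 3 on deviations from genotype means and 0 to 6 with a mouse left out, and 0 without KO2, KO3, KO5, WT1, WT2 or WT4. The Xist term with 9 mice and the count of members below 0 were added after seeing the data. The cause of these shifts was not tested. Chrne, with 38 to 146 counts per mouse, Col13a1, with 215 to 425, and Musk, with 239 to 649, had the thinnest counts of the genes given with a test.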

Other observations

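Further lists of the pathway lay more often below 0 or close to an even split. Of 23 tested genes of the synaptic basal lamina and the dystroglycan complex, 17 had a log2 fold change below 0 in 7 mice (median -0.05), and Col13a1 was the 1 with p below 0.05 in edgeR. Of 14 genes that respond to denervation or activity, 10 lay below 0 (median -0.03), with Myod1 the 1 with p below 0.05, but 7 lay above and 7 below both with 9 mice and with the replicate block in 7. Among 12 genes of the cytoskeleton and of synaptic nuclei, which include the partners of nestin, 8 lay below 0 (median -0.08). Among 14 subunits and anchors of protein kinase A 7 lay above and 7 below, and among 14 tested genes of congenital myasthenia outside the other lists 8 lay above 0 and 6 below. With the replicate block in 7 mice the numbers below 0 were 18 of 23 for the basal lamina, 9 of 12 for the cytoskeleton, 10 of 14 for protein kinase A and 9 of 14 for myasthenia, and with 9 mice they were 16, 7, 6 and 5. Over all genes tested, 52.2% lay below 0 in 7 mice, with a median of -0.0081, against 49.5% with 9 mice and 49.7% with the block.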
